A study of Homo sapiens with 4 samples.

Results

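The response of Hs746T cells to PHA665752 was read from 2 of the 4 arrays of the series, 1 array of cells given the solvent DMSO and 1 of cells given PHA665752. PHA665752 is a small-molecule inhibitor of the MET kinase. Hs746T is an established gastric carcinoma cell line in which, per the study's methods, MET is amplified and carries a mutation that skips exon 14, so both arrays come from cells with this altered receptor. The dose and time of the treatment before the array are not given in the sources used here. The other 2 arrays of the series, of cells transfected with scrambled (sc) siRNA or MET siRNA, are used only for comparison. All values come from a single line and a single array per condition, so no error between cultures, no test and no p-value can be given. A log2 ratio below is PHA665752 over DMSO after each array's 75th percentile was subtracted, and "rose" or "fell" is used only of genes past 2-fold, which is a size and not a test. Signals are the deposited intensities before this scaling. In such bulk RNA, a change in the make-up of the culture and a change in RNA per cell cannot be told apart.

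MET is the receptor tyrosine kinase for hepatocyte growth factor (HGF). When its kinase is active, docking proteins such as GRB2 and GAB1 pass the signal to the RAS-MAPK cascade, which switches on growth and feedback genes, and to PI3K and AKT, which keep FOXO transcription factors out of the nucleus. In tumours with an amplified MET gene the receptor is known to signal without ligand, and the cells can depend on it for growth.

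Of 18755 genes with a value on every array, 14322 had a ratio of PHA665752 over DMSO, and for 13533 of them the probe was well above background on both arrays. With PHA665752, 1876 genes rose past 2-fold, 13.1% of those with a ratio, and 1151 fell, 8.04%. Counts in the gene lists below are to be read beside these shares. Within 1.5-fold lay 58.3% of the genes, against 91.7% for MET siRNA over sc siRNA and 88.6% for sc siRNA over DMSO. The median over all genes was 0.075, or -0.170 with the 50th percentile. This median depends on the scaling, so it cannot show whether the middle of the distribution moved. Past 4-fold there were 383 rises and 255 falls, past 8-fold 57 and 66, and past 16-fold 5 and 16. The falls past 16-fold include the SPRR2 copies, which are counted as 1 observation below. Of the rises past 2-fold 296 are bounds, for genes well above background on 1 array only, against 98 of the falls. A bound takes the dim side at the lowest well-above signal of its array, or at its own signal where that is higher. It is a minimum size only in the first case. The share of genes that rose differed with signal. When genes were split by mean signal into 4 equal groups, 21.2% rose in the dimmest and 4.88% in the brightest, whereas the share that fell lay between 5.79% and 8.63% in all 4. Rises made up 62.0% of the called genes with the 75th percentile, 42.5% with the 50th percentile, which lowers every ratio by 0.246, 54.5% with quantile normalization and 53.1% with normexp background correction. The spots of probes printed 10 times gave a noise of 0.080 for a log2 ratio, which covers the array surface and not the culture.

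**Figure D1:**
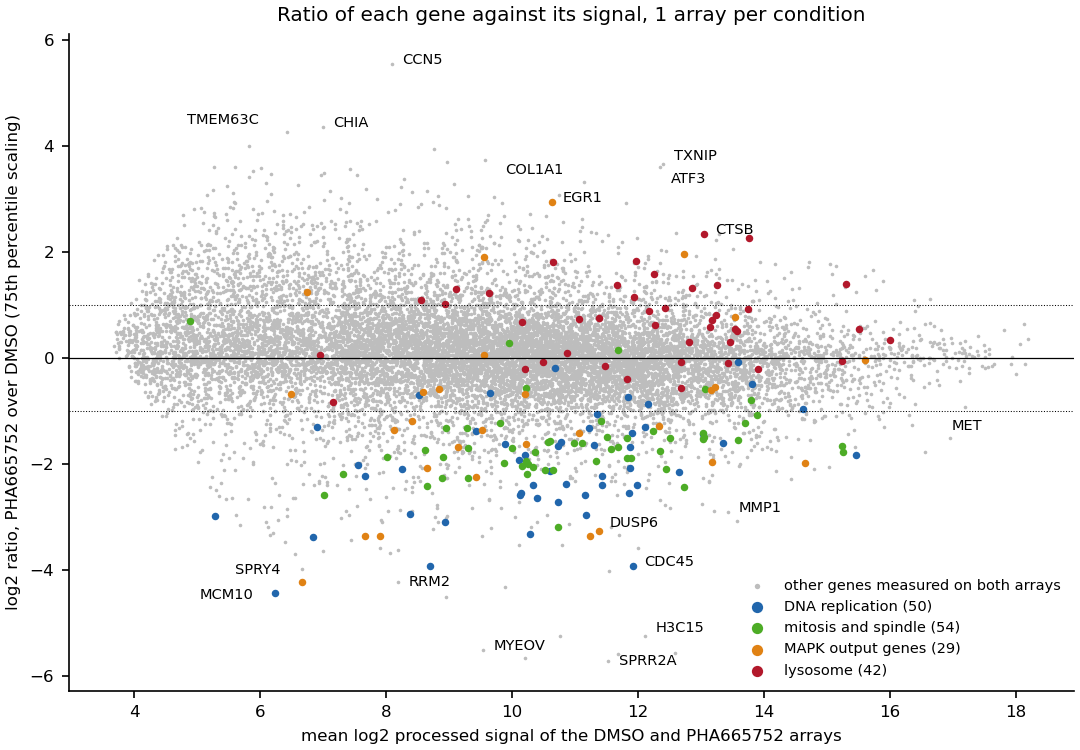
Log2 ratio of PHA665752 over DMSO for each gene well above background on both arrays (vertical axis) against the mean log2 signal of both arrays (horizontal axis), with dotted lines at 2-fold. Coloured points are members of 4 lists; DNA replication and mitosis genes lie almost wholly below 0, lysosome genes mostly above it, and CCN5 (5.55) and SPRR2A (-5.72) mark the ends.

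The arrays were first read for MET and for the identity of the cells. The MET probe read 221451 on the DMSO array and 100492 on the other, and the scaled ratio of -0.93 (log2) stayed short of 2-fold. It was past 2-fold only with the 50th percentile (-1.17) and quantile normalization (-1.01). Both keratin genes KRT8 and KRT18, the adhesion gene EPCAM and the claudin gene CLDN4 were well above background on both arrays, as were CDH2, PRRX1, SNAI2 and THY1 from the mesenchymal list. The E-cadherin gene CDH1 was dim, with signals of 33.0 and 30.2. Of the gastric and intestinal genes TFF1 (0.00), TFF2 (0.21) and MUC6 (-0.05) had a ratio, and GKN1 and CDX2 were not well above background on either array. Epithelial markers and some of the gastric markers were thus measured, and others were not. Of the blood and endothelial markers 11 had a ratio, with 1 rise, 1 fall and a median of 0.15 (-0.10 with the 50th percentile). The defining blood genes MS4A1, CD3E and HBB were not well above background on either array, and PTPRC, the pan-leukocyte gene, went from 37.8 to 31.9. The rise was that of VWF (2.77) and the fall that of PECAM1 (-2.39), both genes of endothelium. Of 15 reference genes, which are used to set levels in other assays, 0 rose and 3 fell, with GAPDH at -0.15 and ACTB at -0.11.

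Of 20 genes around the receptor with a ratio, 5 rose and 1 fell, with a median of 0.16 (-0.08 with the 50th percentile). The fall was that of CRKL, an adaptor that couples MET to RAP1 (-1.41). CBLB, a ubiquitin ligase that marks active receptors for degradation, rose by 2.05, from a signal of 265 to 942, and its second probe by 0.89. HGF itself rose from 17.6 to 43.7 (1.53), and with normexp its ratio was 0.55. PLXNB1, a semaphorin receptor that binds MET, was well above background only with PHA665752 and had a bound of 1.54, and the docking gene GAB2 (1.16) and the hyaluronan receptor gene CD44 (1.02) were the other rises. The adaptors GRB2 (-0.24), SHC1 (0.21), GAB1 (0.44) and PTPN11 (-0.42) stayed within 1.5-fold. Among 22 other receptor tyrosine kinases 3 rose (13.6%, near the 13.1% of all genes) and 5 fell (22.7%, against 8.04%). The median was -0.01. EPHA2, an ephrin receptor, fell from 828 to 69.5 (-3.36), and KIT, EPHA4, ROR1 and DDR2 followed with -1.74 to -1.09, although second probes of KIT (-0.95) and ROR1 (-0.46) stayed short of 2-fold. PDGFRB (2.11), INSR (1.84) and DDR1 (1.22) rose. Of 14 EGF family ligands and receptors 4 fell and 1 rose. The ERBB inhibitor gene ERRFI1 fell by 2.31 on the log2 scale, the ligand genes NRG2, AREG and HBEGF by 1.84, 1.37 and 1.19, and EGFR stood at -0.32. The rise was that of the receptor gene ERBB4 (1.05, or 0.80 with the 50th percentile).

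The MAPK output list holds genes that ERK signalling is known to induce, many of which feed back on the cascade. Of 31 with a ratio, 17 fell (54.8%, against 8.04% of all genes) and 4 rose, with a median of -1.28. SPRY4, a feedback inhibitor of receptor signalling, fell from 475 to 21.7 (-4.24), although a second SPRY4 probe stood at 0.47. DUSP6, the phosphatase that switches off ERK, fell from 8950 to 802 (-3.27), and the related phosphatase genes DUSP4 and DUSP5 by 2.07 and 1.96. The PEA3 group of ETS factors moved together. ETV5 went from 707 to 59.0 (-3.37) and ETV1 from 1094 to 295 (-1.68), while ETV4, at 120 with DMSO, was not well above background with PHA665752 and was at least 8.41-fold lower. FOSL1, the FRA-1 subunit of AP-1, fell from 8349 to 703 (-3.35), and the cyclin gene CCND1 from 2263 to 634 (-1.62). PHLDA1 (-2.25), EMP1 (-1.98), PLAUR (-1.41), SPRED2 (-1.36) and SPRY2 (-1.28) fell as well. The early growth response and FOS genes went the other way. EGR1 rose from 617 to 4094 (2.94), FOS from 3704 to 12443 (1.96), FOSB from 419 to 1352 (1.91) and EGR2 from 74.9 to 153 (1.25). MYC had a ratio of -0.60, short of 2-fold.

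**Figure D2:**
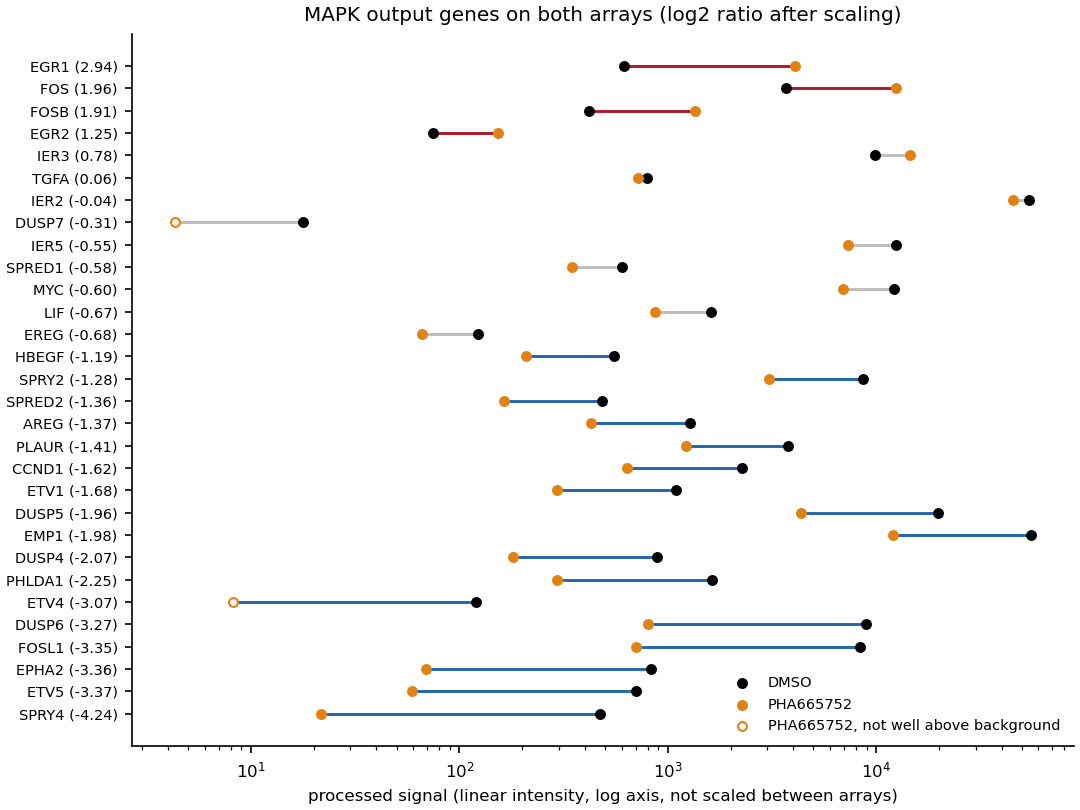
Processed signal of 30 MAPK output genes (rows) on the DMSO array (black) and the PHA665752 array (orange), on a log axis; open circles are not well above background and the log2 ratio after scaling stands in brackets. The 17 falls run from SPRY4 (-4.24) to HBEGF (-1.19), and the 4 rises are EGR1, FOS, FOSB and EGR2.

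The 4 largest falls of all were those of genes for small proline-rich proteins, which are cross-linked into the cornified envelope of squamous epithelia. SPRR2A went from 23071 to 378 (-5.72, or 52.6-fold), SPRR2D from 9078 to 154 (-5.66), SPRR2F from 24558 to 443 (-5.58), and SPRR2E from 45813 to 833 (-5.57). SPRR2C, after MYEOV and H3C15 in rank, went from 11502 to 261 (-5.25). These genes are near-identical copies whose probes may take up each other's RNA, so they count as 1 observation, and a second SPRR2D probe gave -2.63. SPRR1A (0.01) and SPRR3 (0.27), of the same family, stayed close to 0. Genes tied to the cornified envelope had no common fall. Of 8 late cornified envelope genes (stem LCE) 1 fell and 0 rose, with a median of -0.13. IVL (involucrin) went from 245 to 20.7 (-3.35), and SCEL (sciellin) from 178 to a signal not well above background, at least 12.5-fold lower. IVL and the LCE stem were picked with their values in view. The promoters of SPRR2A and SPRR2F are shown because these genes are among the largest falls and their promoters hold the AP-1 letters TGACTCA. SPRR2D and SPRR2E had no promoter listed. Each shown promoter holds 1 match, read on the other strand as TGAGTCA, beginning 197 and 196 bases before the transcription start. The sequences below are from RefSeq (GRCh38.p14), 250 bases before to 30 after the start in the direction of transcription, at chr1:153057483-153057762 and chr1:153113487-153113766 on the minus strand, with the match in capitals.
SPRR2A: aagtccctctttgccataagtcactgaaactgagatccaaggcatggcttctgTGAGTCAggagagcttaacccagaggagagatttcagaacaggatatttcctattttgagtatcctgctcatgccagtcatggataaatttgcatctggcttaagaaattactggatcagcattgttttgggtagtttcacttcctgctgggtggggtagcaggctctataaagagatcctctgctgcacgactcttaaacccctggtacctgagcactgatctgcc
SPRR2F: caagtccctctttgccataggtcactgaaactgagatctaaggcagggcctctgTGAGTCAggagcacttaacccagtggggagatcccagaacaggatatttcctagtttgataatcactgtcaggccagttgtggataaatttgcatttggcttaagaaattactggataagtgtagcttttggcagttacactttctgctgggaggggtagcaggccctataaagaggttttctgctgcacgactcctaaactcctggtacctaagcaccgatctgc
These letters, on either strand, stand in 5.27% of the 1328 promoters of genes that fell and in 4.95% of all 35116 promoters in the table, which are 300 bases long. Of the genes that fell 938 had a promoter in the table, and for those that rose, with 1404 of 1876, the share was too low for such a comparison. The match is a description of these windows and not evidence of binding.

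Among the other large falls MYEOV, a gene near CCND1 on chromosome 11, went from 5427 to 103 (-5.50). FAM111B, a protease gene, fell from 2557 to 96.1 (-4.52). KRTAP2-3, a hair keratin-associated protein gene, fell by 4.32 and MFSD2A, a transporter of lysophospholipids, by 4.26. ACOX2, a peroxisomal oxidase, went from 12919 to 685 (-4.02). DSCAM, a cell adhesion gene, fell by 3.98, its second probe by 1.76. Of the genes well above background with DMSO only, STC1, the hormone stanniocalcin, fell from 519, at least 36.2-fold. The transcription factor gene TOX2 went from 318 to 13.8 (19.9-fold). Its dim signal was above the array's lowest well-above signal of 12.3, so this is not a minimum size. HAS2, which makes hyaluronan, fell at least 11.6-fold, and CSF2, the cytokine GM-CSF, at least 11-fold.

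Genes of the cell cycle made up the broadest fall. The G1 list had 13 falls and 1 rise among 23 genes, with a median of -1.5. E2F1, the factor that drives entry into S phase, went from 4016 to 302 (-3.52), E2F2 from 1029 to 69.0 (-3.68) and E2F8 from 309 to 56.0 (-2.25). CCNE2, a cyclin of the G1/S transition, fell from 250 to 21.8 (-3.30), the phosphatase gene CDC25A by 2.88 and CDK2 by 1.89. CDK4 (-0.23), RB1 (-0.33), CCNE1 (-0.56) and E2F3 (-0.74) stayed short of 2-fold, so the fall was uneven among partners. CCND2 rose by 1.29, which was 0.98 with normexp.

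DNA replication was the list with the lowest median, -2.05, and 42 of its 50 genes fell (84.0%), 26 of them past 4-fold. None had a ratio above 0. MCM10, which helps to activate the replicative helicase, went from 377 to 15.1 (-4.43), CDC45, part of that helicase, from 16331 to 930 (-3.92), and CLSPN, a fork checkpoint mediator, from 1751 to 99.2 (-3.93). The helicase subunits MCM2, MCM4, MCM5, MCM6 and MCM7 fell by 1.68 to 2.40. The licensing genes ORC1 (-3.37), CDC6 (-2.99) and CDT1 (-2.97) fell, and the clamp gene PCNA from 10045 to 1645 (-2.40). The origin subunits ORC2 (-0.66), ORC4 (-0.19) and ORC5 (-0.74) and the single-strand binding gene RPA1 (-0.49) stayed short of 2-fold. Of 26 nucleotide synthesis genes 12 fell and 0 rose, with a median of -0.97. RRM2, the S-phase subunit of ribonucleotide reductase, went from 1367 to 62.7 (-4.23), and TYMS, which makes thymidylate, from 27865 to 3245 (-2.89). The p53-induced subunit gene RRM2B stood at 0.73.

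Of 53 promoters listed for replication genes, 47.2% held E2F letters on either strand, that is TTTCGCG, the variant with TTTGGCG, or the variant with TTTCCCG. The share was 14.6% among promoters of all genes that fell and 7.21% in the whole table. Motif shares of the replication, mitosis and ribosome assembly lists cover every member with a ratio, fallen or not. They describe the hand-written lists and not the response to PHA665752. Promoters of MCM10 (chr10:13161308-13161587, plus strand), CLSPN (chr1:35769949-35770228, minus strand) and E2F1 (chr20:33686356-33686635, minus strand) are shown because these genes are among the largest falls and hold the letters close to the start. The first match of MCM10 begins at base 6 of the transcript, that of CLSPN 4 bases before the start, and those of E2F1 37 and 20 bases before it.
MCM10: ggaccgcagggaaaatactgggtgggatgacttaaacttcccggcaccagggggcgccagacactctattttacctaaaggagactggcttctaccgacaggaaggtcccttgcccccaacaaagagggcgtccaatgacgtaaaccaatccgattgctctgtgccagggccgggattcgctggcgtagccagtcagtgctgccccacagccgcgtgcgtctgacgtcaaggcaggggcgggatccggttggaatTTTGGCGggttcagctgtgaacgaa
CLSPN: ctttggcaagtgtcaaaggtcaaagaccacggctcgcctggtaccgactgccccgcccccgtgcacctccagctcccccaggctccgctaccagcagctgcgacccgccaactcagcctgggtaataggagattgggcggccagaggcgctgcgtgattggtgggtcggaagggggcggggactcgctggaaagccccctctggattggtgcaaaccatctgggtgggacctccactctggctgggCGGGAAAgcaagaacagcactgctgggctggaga
E2F1: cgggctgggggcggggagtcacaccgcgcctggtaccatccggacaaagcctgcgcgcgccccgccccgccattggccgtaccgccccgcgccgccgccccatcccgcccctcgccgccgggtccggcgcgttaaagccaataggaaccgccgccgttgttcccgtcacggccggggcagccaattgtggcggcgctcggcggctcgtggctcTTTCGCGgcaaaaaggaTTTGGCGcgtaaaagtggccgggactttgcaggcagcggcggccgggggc
The capitals mark the E2F letters, and the windows run from 250 bases before to 30 after the RefSeq start (GRCh38.p14).

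Mitosis and spindle genes followed, with 48 falls and 0 rises among 55 (87.3%) and a median of -1.69. CDK1, the kinase of mitotic entry, went from 17053 to 2708 (-2.44), SPC25, a kinetochore subunit, from 5558 to 525 (-3.19), and the cyclin gene CCNA2 from 1484 to 268 (-2.26). CENPI, which builds the inner kinetochore, fell by 2.58. Other regulators were lower to a like degree. AURKB (-2.27), BUB1B (-2.11), PLK1 (-1.87), FOXM1 (-1.71), CCNB1 (-1.52) and the proliferation marker MKI67 (-2.0) fell. MYBL2 (0.70), KIF18A (0.29), CDC25B (0.15) and KIF20A (-0.57) did not share the fall. In promoters of mitosis genes the letters of the CHR element, TTTGAA, stood in 60.0% of 60, against 18.6% for all genes that fell, 15.2% in the whole table and 1.89% for replication genes. The CCAAT box stood in 68.3%, against 34.6% in the whole table. The promoters of SPC25 (chr2:168890401-168890680, minus strand) and of CDK1 at 1 of its 2 listed starts (chr10:60778228-60778507, plus strand) show 2 and 3 CHR matches in capitals. The CDK1 start was chosen by its number of matches. In SPC25 1 match begins 3 bases before the start.
SPC25: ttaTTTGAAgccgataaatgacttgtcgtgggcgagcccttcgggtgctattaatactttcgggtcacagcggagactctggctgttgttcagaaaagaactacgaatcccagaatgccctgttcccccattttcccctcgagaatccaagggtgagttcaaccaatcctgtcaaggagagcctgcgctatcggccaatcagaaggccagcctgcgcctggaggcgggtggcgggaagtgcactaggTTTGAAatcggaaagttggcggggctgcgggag
CDK1: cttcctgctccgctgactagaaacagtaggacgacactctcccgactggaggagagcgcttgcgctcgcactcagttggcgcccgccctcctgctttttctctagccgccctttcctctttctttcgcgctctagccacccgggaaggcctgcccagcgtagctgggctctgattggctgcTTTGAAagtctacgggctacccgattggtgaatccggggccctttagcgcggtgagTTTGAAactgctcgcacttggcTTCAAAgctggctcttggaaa

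DNA repair was split. Of 62 genes 24 fell and 2 rose, with a median of -0.69. The falls included genes of homologous recombination and of the Fanconi pathway, such as EXO1 (-3.62), the helicase gene BLM (-3.22), RAD54L (-3.14), BRCA1 (-2.56) and FANCA (-2.33). Nucleotide excision genes were nearer 0, with ERCC1 to ERCC5 between -0.33 and 0.21, and XPC, their damage sensor, rose by 1.07 (0.82 with the 50th percentile). NEIL1, a base excision glycosylase, rose by 1.93. Among histone and chromatin assembly genes 12 of 28 fell and 1 rose. The falls included CHAF1A (-2.83), CHAF1B (-2.32), ASF1B (-2.72) and UHRF1 (-3.54), which put down nucleosomes and methylation marks behind the fork. H3C2 (-3.58) and, outside the list, H3C15 (-5.25, from 29537 to 670) fell, whereas the linker histone gene H1-2 rose by 1.1 (0.85 with the 50th percentile). Replication-dependent histone genes are near-identical, so probes such as that of H3C15 may not tell copies apart.

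Genes that restrain the cycle were mixed. Of 18 inhibitors and quiescence genes 4 rose and 2 fell, with a median of 0.48. YPEL3, a growth suppressor, went from 337 to 1712 (2.56), MXD4, which competes with MYC for MAX, from 500 to 2421 (2.49), and CDKN1C, the inhibitor p57, from 2536 to 8311 (1.93). GAS6, the ligand of AXL, rose by 2.13. CDKN1B, the inhibitor p27 that FOXO factors induce, stood at 0.98, just short of 2-fold, and CDKN1A, the inhibitor p21, at -0.95. CDKN2D fell by 1.09 and CDKN3, a phosphatase of CDK2, by 1.32. The p53 targets had no common direction, with 6 rises (20%) and 2 falls (6.67%) among 30, against 13.1% and 8.04% of all genes. Their median was 0.06 (-0.19 with the 50th percentile, -0.12 with quantile normalization). TP53INP1 rose by 2.09 and the death gene BBC3 (PUMA) by 1.75, while MDM2 stood at -0.28 and the nuclease gene AEN fell by 2.89. Within the BCL2 family BMF, a BH3-only killer, rose from 88.2 to 605 (2.99), and BCL2, the survival gene, fell from 152 to 20.8 (-2.65). BCL2L1 (BCL-XL) fell by 1.05, or 0.92 with normexp. BCL2L11 (BIM) stood at 0.46 and MCL1 at -0.40.

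Ribosome assembly was lower across its list. Of 46 genes 14 fell and 0 rose, 45 had a ratio below 0, and the median was -0.84. LYAR, a nucleolar factor, went from 11288 to 1779 (-2.45), RRS1 from 12723 to 2520 (-2.12), and BOP1, which matures the large subunit, from 6290 to 1730 (-1.65). The nucleolar methyltransferase gene FBL (-0.92), NCL (-0.88) and NPM1 (-0.18) stayed short of 2-fold. The proteins of the ribosome itself did not take part. Of 30 cytosolic ribosomal protein genes 0 rose and 0 fell, and all but RPL37, which is dim, lay between -0.22 and 0.36 (median 0.08, or -0.17 with the 50th percentile). Proteasome genes had 2 falls, PSMD14 (-1.46) and PSMD12 (-1.37), but all 28 ratios were below 0. The chaperone genes HSP90AA1 (-1.05), HSPE1 (-1.02), HSPA4L (-1.18) and HSPH1 (-1.0) fell narrowly, with HSP90AA1 and HSPA4L short of 2-fold under normexp and HSPE1 under quantile normalization. MYC, at 12128 and 6910, and its partner MAX (0.21) stayed within 2-fold, and MXD4 was the single member of that network past it. Of 49 promoters of ribosome assembly genes 36.7% held the E-box letters CACGTG, against 7.26% in the whole table. The promoter of LYAR (chr4:4289992-4290271, minus strand), at 1 of its 2 listed starts, shows 1 such match in capitals, 64 bases before the start. That start was chosen by its number of matches.
LYAR: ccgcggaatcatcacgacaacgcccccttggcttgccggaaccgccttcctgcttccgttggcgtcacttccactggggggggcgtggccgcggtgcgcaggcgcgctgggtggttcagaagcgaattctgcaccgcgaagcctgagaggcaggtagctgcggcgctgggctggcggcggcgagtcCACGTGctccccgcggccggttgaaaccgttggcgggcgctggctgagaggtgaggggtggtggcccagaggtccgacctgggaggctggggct
Over all genes with a ratio, of which 79.2% had a promoter in the table, too few for more than a description, the shares were 9.74% for E2F letters, 11.2% for CHR letters, 34.8% for the CCAAT box, 8.78% for the E-box, 15.1% for the ETS letters CCGGAAG and 3.94% for AP-1 letters.

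**Figure D3:**
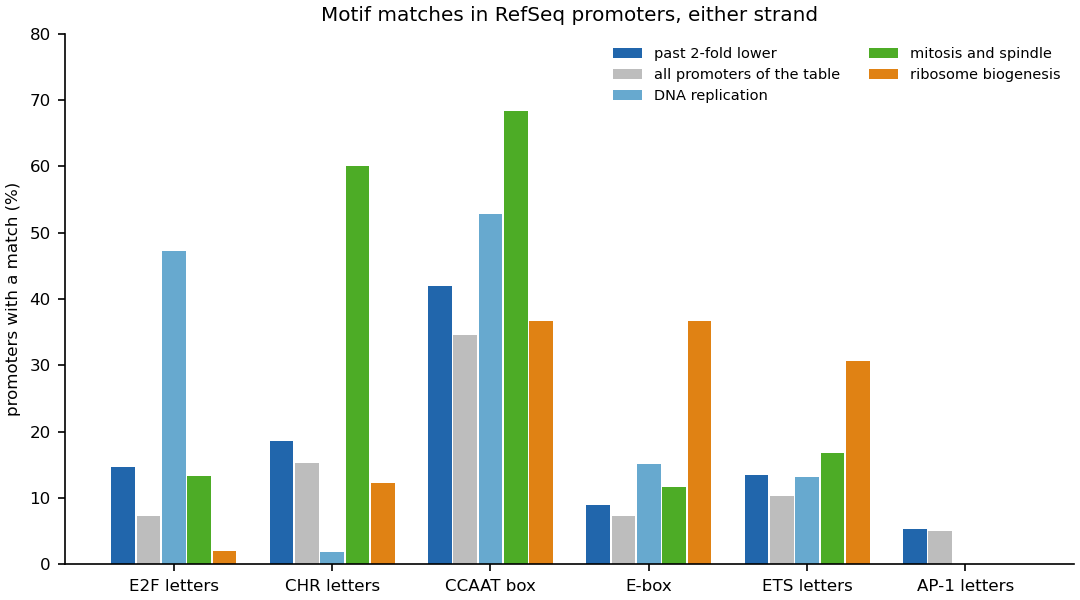
Share of RefSeq promoters (percent, vertical axis) that hold the letters of each motif on either strand (for ETS factors CCGGAAG), for all genes that fell, the whole table of promoters and 3 gene lists. E2F letters stand out in replication promoters (47.2%), CHR letters in mitosis promoters (60.0%) and the E-box in ribosome assembly promoters (36.7%). The list shares cover members with a ratio, fallen or not, and describe the lists rather than the response.

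Genes that PI3K signalling holds down through FOXO factors were mostly higher. Of 23 genes 9 rose (39.1%, against 13.1% of all genes) and 1 fell, with a median of 0.69. TXNIP, which blocks thioredoxin and glucose uptake, went from 1645 to 17893 (3.66, or 12.6-fold), and SELENOP, a selenium carrier, from 87.3 to 424 (2.49). FOXO1 rose from 48.0 to 202 (2.29), FOXO4 by 1.91 and INSR, the insulin receptor, by 1.84. PIK3IP1, an inhibitor of PI3K, was well above background with PHA665752 only and was at least 7.40-fold higher. The mitophagy gene BNIP3 fell from 76170 to 25579 (-1.36). FOXO3 (0.01) and IRS2 (0.20) stayed close to 0, so the list did not move as a whole.

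Other signalling lists held a few large changes. In the BMP and TGF-beta list 8 of 24 rose (33.3%, against 13.1% of all genes) and 2 fell (8.33%, against 8.04%). Its median was 0.41. ID2, which blocks differentiation factors, went from 636 to 4611 (3.07), SMAD6, an inhibitor of BMP signalling, from 41.3 to 196 (2.46), TGFB2 from 18.8 to 83.5 (2.36, or 0.98 with normexp) and ATOH8 from 27.4 to 117 (2.31). FST, which traps activin, fell by 1.76 and BMP2 by 1.1 (0.62 with normexp), and ID1 stood at -0.43. Of 15 YAP and TEAD genes 3 fell, WWTR1 (TAZ) by 2.20, the tissue factor gene F3 by 2.02 and NT5E by 1.67, while CCN1 (1.04) and ARHGEF17 (1.44) rose and CCN2 stood at -0.81. SOCS1, a brake on JAK signalling, fell from 1901 to 230 (-2.83), and BCL3, JUNB and PIM1 of the same list rose by 1.18, 1.16 and 1.06. The Wnt and Notch list had rises in the Notch ligand gene JAG2 (2.13) and the Wnt inhibitor gene DKK1 (1.09) and 0 falls among 15, and its 13.3% of rises was near the 13.1% of all genes. Its common Wnt target AXIN2 was at -0.19.

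The lysosome had 14 rises (33.3%, against 13.1% of all genes) and 0 falls among 42, with a median of 0.70. The proteases CTSB, CTSF, CTSO, CTSH and CTSD rose, CTSB from 4068 to 17779 (2.34) and CTSF from 6866 to 28471 (2.27), as did the sphingolipid cofactor gene PSAP (1.4), the glycogen-degrading GAA (1.37) and the cholesterol exporter gene NPC1 (1.37). Of the factors that drive lysosomal genes MITF rose by 1.22, while TFEB (-0.41, with another probe at 0.96) and TFE3 (-0.08) stayed short of 2-fold. In the autophagy list 6 of 25 rose (24%) and 1 fell (4%). DEPTOR, an inhibitor of mTOR, went from 109 to 632 (2.76), the ATG8 homologue gene GABARAPL1 from 2984 to 10468 (2.02) and the cargo receptor gene SQSTM1 from 15881 to 44986 (1.72), and ATG16L1 fell by 1.25. Core conjugation genes ATG3, ATG5, ATG7 and ATG12 lay between -0.58 and -0.36, with other probes of ATG5, ATG7 and ATG12 above 0.

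Cholesterol synthesis had 5 rises and 0 falls among 22, with a median of 0.59. TM7SF2 (2.42), MVD (1.35), SC5D (1.32), LSS (1.24) and DHCR7 (1.07) rose. SC5D was dim and stood at 0.72 with normexp. Fatty acid genes had 2 rises and 1 fall among 31 (median 0.18, or -0.06 with the 50th percentile): ELOVL6, a chain elongase, fell from 2232 to 358 (-2.43), ACSS2, which activates acetate, rose by 1.54, and FASN was at 0.22. In glycolysis HK2 (-1.24), PGAM1 (-1.13) and PGK1 (-1.08) fell, and the median of 27 was -0.36. The hypoxia list held 5 falls and 0 rises among 21, the largest being STC1 and ANGPTL4, a lipase inhibitor that went from 38470 to 3904 (-3.09). VEGFA (0.14) of this list and SLC2A1 (-0.09) of the glycolysis list did not follow. Oxidative phosphorylation had 2 falls among 34, CYCS (-1.41, with 1 of its probes at 0.08) and ATP5MC1 (-1.04), and a median of -0.17. The shares of fatty acid (6.45% and 3.23%), glycolysis (3.70% and 11.1%) and oxidative phosphorylation genes (0% and 5.88%) that rose and fell stood near or below the 13.1% and 8.04% of all genes. The ATF4 list had 2 rises and 4 falls among 26, among them ATF3, which went from 1614 to 16994 (3.61) with its 4 probes between 0.25 and 3.66, NUPR1 (2.20) and the amino acid transporter gene SLC7A5 (-2.40), while ASNS (-0.39), CHAC1 (-0.38) and DDIT3 (0.94) stayed short of 2-fold. Of the unfolded protein response, 1 of 22 genes fell (SDF2L1, -1.5) and the chaperone gene HSPA5 stood at 0.45. The NRF2 and metal list had 8 rises and 1 fall among 27, led by the metallothionein genes MT1X (1.74) and MT1E (1.62), and HMOX1, which degrades haem, went from 13139 to 32081 (1.5). Of the aryl hydrocarbon receptor and clock genes CYP1B1 (2.17), DBP (1.86) and AHR (1.62) rose and PER2 fell by 1.55.

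**Figure D4:**
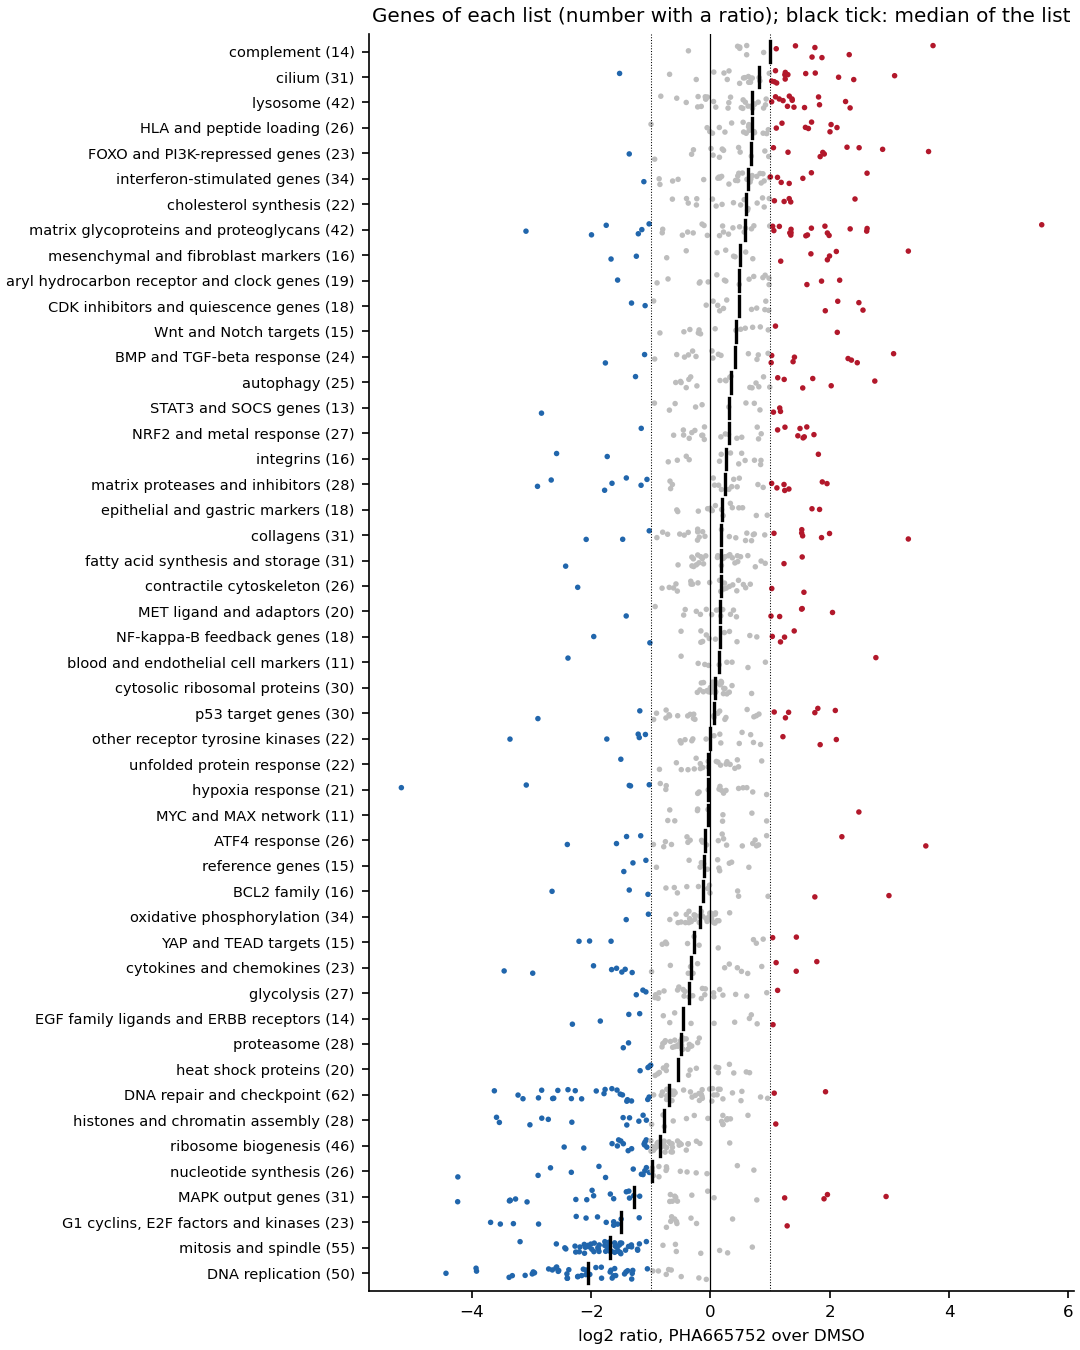
Log2 ratio of PHA665752 over DMSO (horizontal axis) for every member with a ratio of each of the 49 gene lists (rows, number in brackets), with rises past 2-fold in red, falls in blue and a black tick at the median. Replication, mitosis and G1 genes form the lower end with medians of -2.05, -1.69 and -1.5, and complement, cilium and lysosome genes the upper end with 1.0, 0.82 and 0.70.

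Genes of the extracellular matrix had rises and falls side by side. Of 42 glycoproteins and proteoglycans 17 rose (40.5%, against 13.1% of all genes) and 6 fell (14.3%, against 8.04%). The median was 0.58, or 0.33 with the 50th percentile. CCN5, a matricellular protein of the CCN family, rose most of all genes, from 42.8 to 1732 (5.55, or 47.0-fold). LAMA3 went from 956 to 5091 (2.63), THBS3 from 273 to 1445 (2.62) and FN1, fibronectin, from 1061 to 3564 (1.96). LAMA2 fell from 214 to 21.7 (-3.09), SPP1 (osteopontin) by 1.99 and LAMA4 by 1.75, with other LAMA4 probes up to 0.20, so laminin chains moved apart. Among 31 collagen genes and their processing enzymes 7 rose (22.6%) and 3 fell (9.68%), with a median of 0.19 (-0.06 with the 50th percentile). COL1A1 went from 771 to 6631 (3.32) and COL1A2, the second chain of type I collagen, from 1216 to 4182 (2.0), while COL17A1, of the hemidesmosome, fell from 451 to 91.9 (-2.08) and COL13A1 by 1.47.

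Proteases that cleave the matrix moved both ways. MMP1, interstitial collagenase, went from 32568 to 3766 (-2.90), MMP10 from 586 to 79.5 (-2.67), PLAU, the urokinase activator, from 192412 to 48542 (-1.77) and MMP14 from 19912 to 5474 (-1.65). MMP11 (1.96), MMP15 (1.88) and TIMP2 (1.11) rose, so the list of 28 held 7 rises and 7 falls. Of the integrins ITGA2, the collagen receptor subunit, fell by 2.58 and ITGB3 by 1.73, and ITGB8, a dim gene, rose by 1.81 (0.87 with normexp). Of 16 mesenchymal markers 6 rose and 2 fell: besides both type I collagen genes these were PDGFRB, FN1, SNAI1 (1.69) and CDH11 (1.18), with NT5E and TWIST1 (-1.24, or -0.58 with normexp) falling and CDH2 (0.26), ZEB1 (-0.73) and SNAI2 (0.39) short of 2-fold. Of 18 epithelial markers MUC1 rose from 692 to 1944 (1.70), KRT5 was well above background with PHA665752 only, and 0 fell (median 0.20, or -0.04 with the 50th percentile). In the contractile list TPM2 (1.57) and TAGLN (1.03, below 2-fold with the 50th percentile, quantile normalization and normexp) rose and FHL2 fell by 2.22, among 26 genes with a median of 0.17 (-0.07 with the 50th percentile). Rises made up 11.1% of the epithelial list and 7.69% of the contractile list, below the 13.1% of all genes. Falls made up 0% and 3.85%, below the 8.04% of all genes.

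Cilium genes were among the highest lists, with 13 rises (41.9%) and 1 fall among 31. Of all genes 13.1% rose, and 21.2% of those in the dimmest of the 4 groups by signal. The cilium median was 0.82, or 0.571 with the 50th percentile and 0.575 with normexp. The rises included the intraflagellar transport genes IFT140 (2.15), IFT172 (1.30), IFT81 (1.26), IFT80 (1.09), IFT88 (1.07) and IFT43 (1.03), which carry cargo along the cilium, and the cargo coat genes BBS1 (1.76) and BBS9 (1.25). The motor genes DNAH5 (from 26.6 to 195, 3.09) and DNAH2 (from 172 to 782, 2.40) rose, and DYNLRB2, a dynein light chain gene outside the list, was among the largest rises, from 53.7 to 549 (3.57). The fall was that of TUBB4B (-1.52), a tubulin gene. FOXJ1, the master factor of motile cilia, gave no ratio, nor did DNAI1, DNAI2 or CCDC39.

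Immune genes other than the checkpoint molecules showed rises in complement and HLA. Of 14 complement genes 7 rose (50%, against 13.1% of all genes) and 0 fell. The median was 1.0, or 0.75 with the 50th percentile. CFB, factor B of the alternative pathway, went from 226 to 2591 (3.73), C1S from 1418 to 6132 (2.33) and C1R from 5384 to 16968 (1.87), and C3, the central component, was dim with -0.37. Of 26 HLA and peptide loading genes 8 rose and 0 fell, with a median of 0.69. All 8 belong to the class II pathway: HLA-DOA (2.12, though its second probe stood at -0.16), HLA-DMA (2.02), HLA-DMB (2.0), HLA-DRA (1.70), HLA-DQA1 (1.64), HLA-DPB1 (1.59), HLA-DPA1 (1.2) and the invariant chain gene CD74 (1.1). The class I genes HLA-B (0.60) and HLA-C (0.56) and B2M (0.65) stayed short of 2-fold, and CIITA, which switches on class II genes, stood at 0.73. Of 34 interferon-stimulated genes 7 rose (20.6%) and 1 fell (2.94%), with a median of 0.64. MX2, an antiviral GTPase, went from 244 to 1298 (2.63), TRIM22 from 140 to 389 (1.69) and MX1 from 781 to 1970 (1.55), whereas OAS3 fell by 1.11, or 0.77 with normexp, and IRF1 (0.12) was near 0.

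Cytokine genes went mostly the other way. Of 23 with a ratio 8 fell and 3 rose, with a median of -0.33 (-0.60 with quantile normalization, -0.58 with the 50th percentile and -0.18 with normexp). Besides CSF2, CCL20 went from 261 to 28.6 (-2.98), CCL3 from 68.6 to 15.2 (-1.96, or -0.52 with normexp), IL24 from 453 to 124 (-1.66), IL11 from 1011 to 311 (-1.48) and the neutrophil attractants CXCL1 (-1.31) and CXCL8 (-1.57) fell. IL6 (1.44), IL1B (1.1) and IL1A (a bound of 1.78) rose from low signals, and with normexp all 3 were short of 2-fold. Of the NF-kappa-B feedback genes TNFAIP3 (A20) fell from 2006 to 446 (-1.96) and NFKBIZ rose by 1.41, while NFKBIA was at 0.23 (list median 0.16, or -0.09 with the 50th percentile).

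Genes that rose most, apart from those above, came from varied functions and mostly low signals. CHIA, an acidic chitinase, went from 30.4 to 535 (4.35), TMEM63C, a membrane channel gene, from 21.3 to 351 (4.26) and BEST4, a chloride channel, from 119 to 1589 (3.95). DPP4, a surface peptidase, went from 150 to 1670 (3.69). PSG5 (4.00) and PSG3 (3.59) code for pregnancy-specific glycoproteins, and these and KIR2DS2 (3.60) belong to families of near-identical genes whose probes may not tell members apart. HSD17B3, a steroid dehydrogenase gene, rose by 3.60 at a signal of 11.9 with DMSO, its second probe by 1.61, and RAB7B (3.53) and ZMIZ1-AS1 (3.48) complete the largest rises. Of genes well above background with PHA665752 only, the carbonic anhydrase gene CA7 was at least 16.4-fold higher. The lysophosphatidic acid receptor gene LPAR3 was at least 14-fold higher and PLK5 at least 12.5-fold. TSPAN8 (14-fold) and HHIPL2 (12-fold) read 12.9 and 12.7 with DMSO. These signals are above that array's lowest well-above signal of 10.8, so both ratios are not minimum sizes.

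The MET siRNA array, set against sc siRNA, shares no array with the inhibitor pair and gives a second view of the same genes. The MET probe read 190010 with sc siRNA and 77853 with MET siRNA (-1.33), so MET RNA was lowered but not lost. The study reports that phosphorylated MET fell less with the knockdown than with the inhibitor. The siRNA pair changed far fewer genes, 278 higher (2.04%) and 95 lower (0.696%) of 13647. The MET siRNA array was measured less well, with 61.1% of probes well above background, against 67.4% on the DMSO and PHA665752 arrays. Of its spots 5.58% were left out. The part of this in the counts was not tested. The controls themselves, sc siRNA over DMSO, had 413 higher (2.89%) and 165 lower (1.16%) of 14274. Of the 1876 genes that rose with PHA665752, 1566 had a siRNA ratio, of which 86.9% were above 0 and 137 past 2-fold higher. Of the 1151 that fell, 1093 had one, of which 73.2% were below 0 and 19 past 2-fold lower. Among all genes with both ratios 46.9% were above 0 with the siRNA. The direction was thus shared more often than over all genes, but the size was not, with siRNA medians of 0.37 and -0.23 for the genes that rose and fell.

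The lists differed in how far the siRNA pair followed. MAPK output genes had a siRNA median of -0.57 with 4 falls among 30, namely AREG (-1.29), SPRY4 (-1.16), DUSP6 (-1.14) and EPHA2 (-1.1), and ribosome assembly genes one of -0.40 with 0 past 2-fold. FOXO target genes stood at 0.19 with rises in PDK4 (1.68), TXNIP (1.51), SELENOP (1.43) and INSR (1.16). Replication genes (0.02), mitosis genes (0.14) and G1 genes (-0.02) were not lower with the siRNA, and 0 members of these 3 lists were past 2-fold in either direction. In sc siRNA over DMSO the replication median was already -0.50 and the mitosis median -0.48. The interferon-stimulated genes had a siRNA median of 0.24, while all 35 with a ratio were past 2-fold higher in sc siRNA over DMSO, so both transfected arrays had high levels of them. The EGR1 ratio was 0.09 with the siRNA, against 2.94 with the inhibitor, and CCN5 rose in both, by 2.52 with the siRNA. SPRR2A, the largest fall with the inhibitor, stood at -0.139 with the siRNA and at -1.425 in sc siRNA over DMSO. None of these differences between the pairs was tested.

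**Figure D5:**
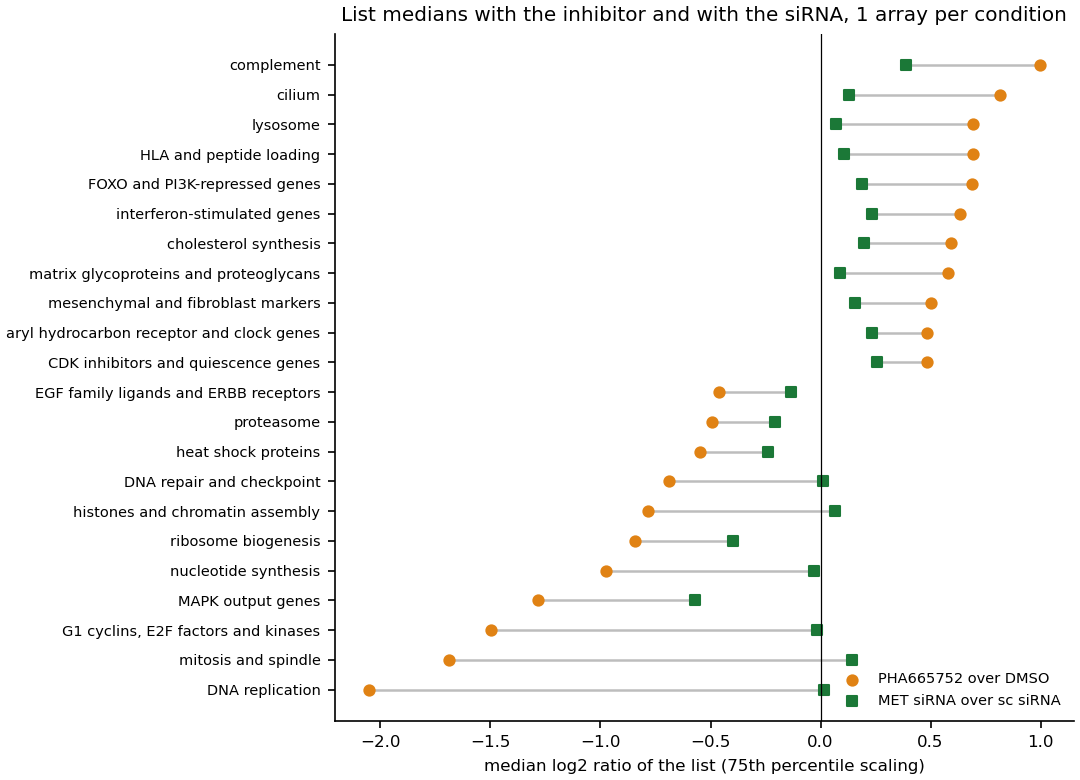
Median log2 ratio (horizontal axis) of the 22 lists whose inhibitor median is at least 0.45 in size, for PHA665752 over DMSO (orange circles) and MET siRNA over sc siRNA (green squares), 1 array per condition. MAPK output and ribosome assembly genes lie below 0 in both pairs, while replication (-2.05 and 0.02) and mitosis genes (-1.69 and 0.14) lie below 0 with the inhibitor alone.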

How the data were processed

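RNA of 4 Hs746T cultures was hybridised by the authors to single-colour Agilent arrays on 1 slide. The deposited intensity values are processed signals from Feature Extraction 11.5.1.1, which subtracts background but does not normalize between arrays; the deposited marks for background, saturation and outliers were read as well, as other values. Control spots and outliers were left out, 1.92% of DMSO and 2.21% of PHA665752 spots, and 0 spots were saturated. Log2 signals were averaged by probe and centred on each array's 75th percentile, and the probe with the highest mean signal stood for a gene. Where a probe was well above background on 1 array only, the ratio is called a bound. Its dim signal was raised to the floor (10.8 and 12.3) if below it. A dim signal above the floor was kept, and the ratio is then not a minimum size. The number of arrays limits the precision, and no test was run.

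Genes named were MET, the 15 largest rises and falls, the 5 largest bounds each way, the 3 largest changes each way in each of 49 lists, and members with a defining role. Some genes that met these rules are not reported here. The members and lists were chosen with earlier results of these data known. Motifs were sought in RefSeq promoters (GRCh38.p14). Scripts were in Python 3.11.15 with pandas 2.3.3, quantile normalization included, and R 4.3.3 with limma 3.58.1 was used for normexp. The Python steps from spots to ratios were tested on simulated data. Alternatives were another percentile, quantile normalization, normexp, other filters, the deposited value table, the median over probes and other fold thresholds.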

Additional observations from a re-analysis of the deposited data

Results flagged for a closer look

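The median of the DNA replication list was -2.05 (log2) for PHA665752 over DMSO and 0.02 for MET siRNA over sc siRNA. The mitosis and spindle list had medians of -1.69 and 0.14. Both were marked because the list median lay on opposite sides of 0 in the 2 pairs while that of the inhibitor was past 2-fold. With 1 array per condition the difference between the pairs was not tested.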

How the results depend on the processing

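No paired analysis was possible because each condition has a single array. The 1876 rises became 955 with normexp, 3518 at a 1.5-fold threshold and 383 at 4-fold. The 1151 falls became 1768 with the 50th percentile, 2454 at 1.5-fold and 255 at 4-fold. Every other alternative left both counts within 1.5 times, and 0 of the 204 genes named by rank or list changed sign. Of these 30 were under 2-fold with normexp and 14 with the 50th percentile, against MET alone in the main values.

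With normexp the medians of MAPK output (-0.95), G1 (-1.21) and replication genes (-1.69) were closer to 0, and with quantile normalization that of cytokines was -0.60.

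List medians close to 0 changed sign in 18 cases. With the 50th percentile these were MET ligands and adaptors (-0.082), p53 targets (-0.186), cytosolic ribosomal proteins (-0.165), fatty acid genes (-0.061), collagens (-0.060), epithelial markers (-0.045), contractile genes (-0.073), NF-kappa-B feedback genes (-0.086) and blood and endothelial markers (-0.098). With quantile normalization they were p53 targets (-0.115) and the ATF4 response (0.020), and with normexp other receptor tyrosine kinases (0.105) and the unfolded protein response (0.008). Without a filter on dim probes they were other receptor tyrosine kinases (0.061) and the MYC and MAX network (0.204). With the median over a gene's probes they were other receptor tyrosine kinases (0.087), p53 targets (-0.098) and the ATF4 response (0.034). Apart from the fixed shift of the 50th percentile, the cause was not tested. Signal over background limits the dimmest genes, 789 of which have only a bound.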

Other observations

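Genes sharing a symbol stem gave further groups outside the lists. Of 21 nucleoporin genes (NUP), which build the nuclear pore, 9 fell and 0 rose, with a median of -0.82. Of 10 EXOSC genes, subunits of the RNA exosome, 4 fell, with a median of -0.67. The mitochondrial ribosomal protein genes did not stand out by their falls, with 3 of 49 for the large subunit (MRPL, median -0.42) and 0 of 25 for the small (MRPS, median -0.38), against 8.04% of all genes. The 53 genes with the stem RPL had a median of 0.03 and 0 past 2-fold.

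On the other side, 7 of 8 pregnancy-specific glycoprotein genes (PSG) rose, with a median of 1.62, and 6 of 8 genes with the stem MT, mainly metallothioneins, with 1.56. These are near-identical copies whose probes may share RNA. Of 14 HSD genes, hydroxysteroid dehydrogenases, 6 rose and 0 fell (median 0.92), of 11 aquaporin genes 5 rose (0.78), and of 11 protocadherin beta genes 4 rose (0.74). These stems were picked after their values were seen.

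Long non-coding RNA genes had a median of 0.44 over 499, with 22.8% past 2-fold higher and 5.01% lower, against 0.06, 12.7% and 8.24% for 13468 protein-coding genes. Dim genes rose more often than bright ones over the whole array, and the part of signal in this difference was not tested.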
